A study of Oryza sativa with 2 samples.

Results

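Rice genes of the circadian clock, of light perception and of the CCT-domain family were compared between leaves of nontransgenic plants (NT) and leaves of plants labelled PGD1:Roc10. A row of the deposited expression table was taken when its description named a pseudo-response regulator, a CCT domain, CONSTANS, GIGANTEA, a phytochrome, a cryptochrome, a phototropin, a circadian factor or TIMING OF CAB, or when its symbol began with one of a short set that includes PRR, PCL1 and PHYA. Rows of small and structural RNAs (identifiers starting EPlOSAG) were left out. The rule found 42 of 76131 rows. The rule reads names and descriptions, not measured values. No row matched phototropin.

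The study used Oryza sativa cultivar Ilmi, with 1 strand-specific library per group. NT plants carried no transgene. PGD1:Roc10 plants carried Roc10, a homeodomain-leucine zipper transcription factor gene, behind a promoter described as driving expression in the whole plant. Both were 2-week-old seedlings grown in soil under normal conditions, and total RNA came from leaves. In both groups seeds germinated for 4 days at 28 °C, and plants were grown at 3 per pot. How many plants and transgenic lines each library stands for, and at what hour leaves were collected, is not given in the sources used here. Without replicates no test was possible, so every difference below compares 2 libraries and cannot be set against the spread between plants.

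Mapped pairs numbered 27683296 in NT and 21866514 in PGD1:Roc10. No row carries the name Roc10, and the gene was not looked up by its locus, so the transgene was not used to check the label. The leaf genes RBCS-A, for the small subunit of Rubisco, and CAB2R, for a chlorophyll-binding antenna protein, stood at 7108 and 8255 FPKM in NT and at 6764 and 7840 FPKM in PGD1:Roc10. FPKM counts fragments relative to transcript length and to the size of the library, and it allows levels of different genes to be compared per length. A row with a mean of at least 1 FPKM over both libraries is called measured.

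The plant clock is a set of genes that repress or activate each other in turn over the day. In Arabidopsis, LHY and CCA1 peak at dawn, the pseudo-response regulators follow through the day, and TIMING OF CAB 1 and the evening complex act towards dusk. Phytochromes sense red and far-red light and cryptochromes sense blue light, and both set the clock and control growth. The CCT domain is a protein region shared by CONSTANS, several pseudo-response regulators and other flowering regulators, and in rice such genes are known for setting heading date.

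Of the 42 rows, 34 were measured (81.0%), against 57.6% of all rows without EPlOSAG identifiers. Of the measured rows, 1 lay below 1 FPKM in 1 library and passed through the other alone. By role, 10 of 11 clock rows, 5 of 6 light receptor rows, 6 of 10 phytochrome-related rows and 13 of 15 CCT and CONSTANS-like rows were measured. Of the 8 rows that were not measured, 3 were listed at 0 in both libraries, namely the ZGT-like OS01G0802600, the CCT-domain row OS05G0466100 and OS03G0603100. The other 5 had means between 0.0133 and 0.170 FPKM.

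Levels in the measured rows spanned from 1.53 to 659 FPKM in the mean of both libraries. Their median was 39.0 FPKM, against 11.6 FPKM over all 21875 measured rows. The 4 most abundant genes, the CONSTANS-like OS06G0654900, the GIGANTEA gene OS01G0182600, PRR95 and the CONSTANS-like OS02G0178100, held 59.4% of the summed FPKM of the 34 rows in NT and 58.0% in PGD1:Roc10. The same 4 genes led in both libraries, and PRR95 stood above OS02G0178100 in PGD1:Roc10 and below it in NT.

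**Figure D1:**
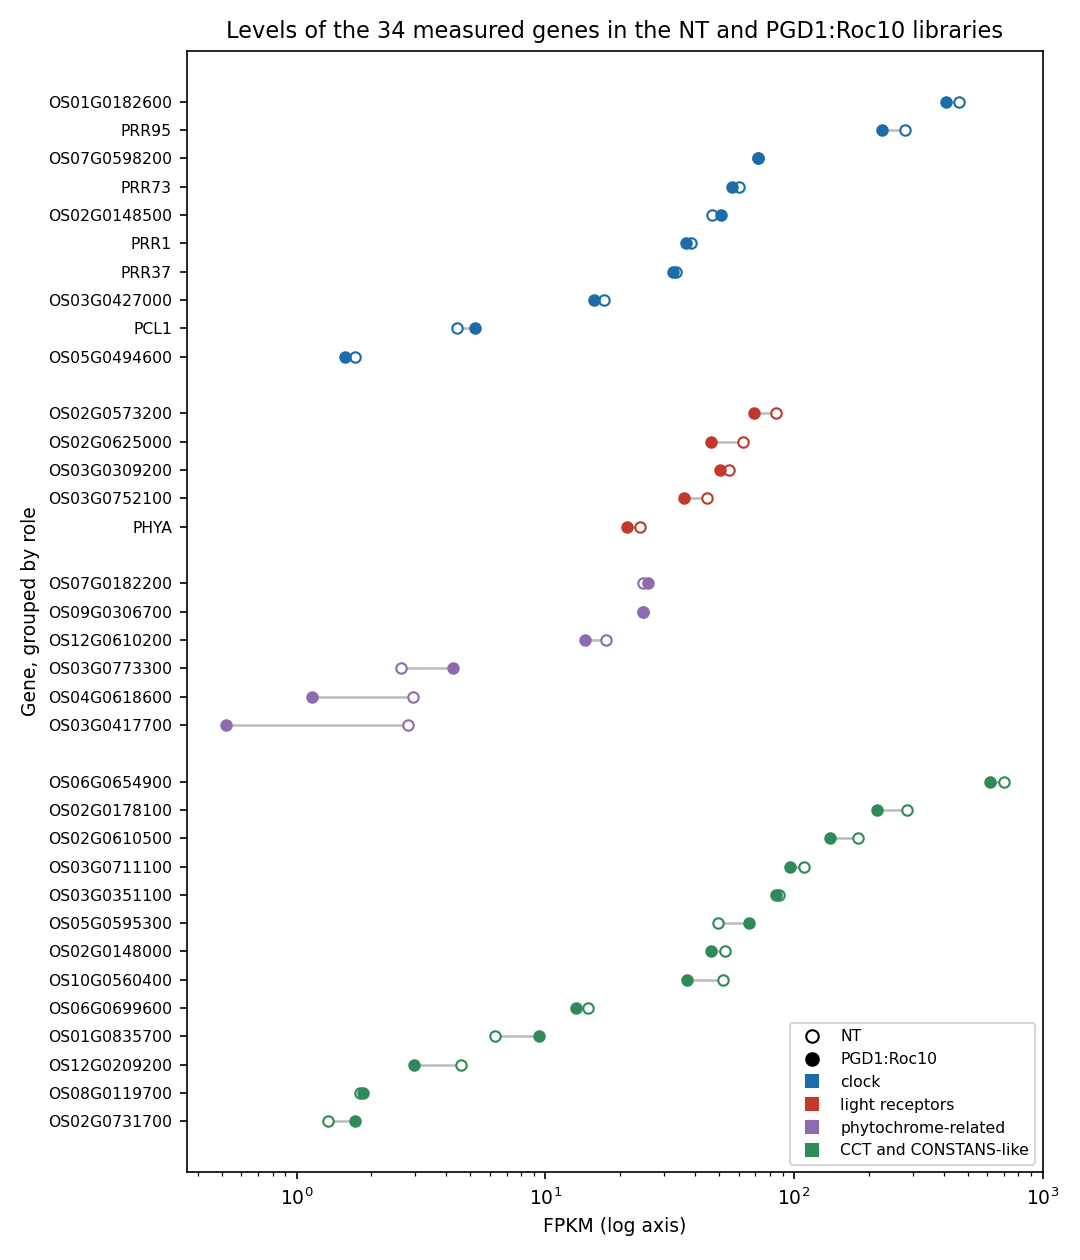
FPKM on a log axis for each of the 34 measured genes, with NT as open and PGD1:Roc10 as filled points, grouped by role and ordered by mean level. In most genes the points lie close together, and the widest gap is in OS03G0417700, at 2.81 and 0.518 FPKM.

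Differences are given as the log2(FPKM + 1) value of PGD1:Roc10 less the NT value. On this scale 0 of the 34 measured members were 2-fold higher in PGD1:Roc10, and 1 was 2-fold lower. Over all measured rows 2.29% were 2-fold higher and 1.29% were 2-fold lower. Past 1.5-fold on this scale stood 0 members that were higher and 2 that were lower, OS03G0417700 and OS04G0618600, against 5.13% and 3.91% of all measured rows. By plain ratio OS03G0773300, at 1.62, and OS01G0835700, at 1.51, also passed 1.5-fold higher. OS12G0209200, at 1.54-fold, also passed 1.5-fold lower by plain ratio. The share of all rows past a plain ratio of 1.5 was not computed. In all, 25 rows were lower in PGD1:Roc10 by any amount and 9 were higher, so 73.5% were lower against 51.1% of all measured rows. The median difference was -0.13 on the log2 scale, against -0.01 over all measured rows. With the libraries scaled to the same FPKM total, 29 were lower and 5 higher, but that scaling also moved the median of all rows to -0.19 and left 78.7% of all measured rows lower. Under the other 3 scalings 24 to 26 were lower, where 45.5% to 52.3% of all measured rows were lower. In leaf RNA, fewer cells of a type and less RNA per cell cannot be told apart.

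The balance of lower and higher values was also read by level. Of 13 members with a mean of at least 50 FPKM, 11 were lower in PGD1:Roc10, with a median difference of -0.18. In the same range 57.8% of all rows without EPlOSAG identifiers were lower, with a median of -0.03. Of the 9 measured members with a mean below 10 FPKM, 4 were lower and 5 higher. The share of all rows in that range was not computed, so these counts have no background to be set against.

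**Figure D2:**
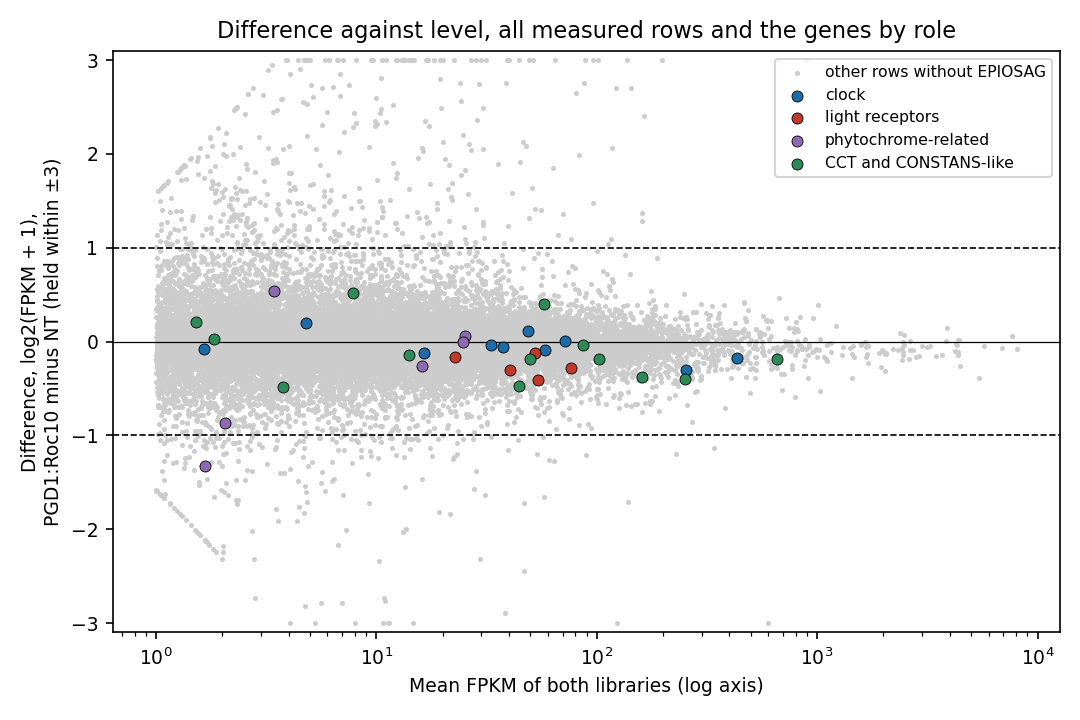
Difference between the libraries on the log2(FPKM + 1) scale against mean FPKM (log axis), with each measured row without an EPlOSAG identifier as a grey point and the 34 genes coloured by role. Grey points past 3 in either direction are drawn at 3, and dashed lines mark 2-fold. Only OS03G0417700, at -1.33, lies past a dashed line among the coloured points.

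Clock genes gave differences between -0.30 and 0.19, with a median of -0.07. Of the 10 measured, 7 were lower in PGD1:Roc10 as deposited. With the libraries scaled to the same upper quartile 8 were lower, and with the same total 9 were lower. Among all measured rows, 51.1% were lower as deposited, 52.3% with the same upper quartile and 78.7% with the same total. GIGANTEA (OS01G0182600, chromosome 1, 4329361 to 4338486), a large plant protein that links the clock to flowering, was the most abundant clock gene. It gave 459.6 FPKM in NT and 408 FPKM in PGD1:Roc10, a difference of -0.17, and its level lay above 99.0% of all measured rows.

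The 4 genes named PRR encode pseudo-response regulators, which in Arabidopsis repress the dawn genes. PRR95 (chromosome 9, 20885172 to 20889792) gave 279.9 FPKM in NT and 226 FPKM in PGD1:Roc10, a ratio of 0.809. PRR73 (chromosome 3, 9759665 to 9768689) gave 60.4 and 56.5 FPKM. PRR37 (chromosome 7, 29616704 to 29629215), known in rice as a regulator of heading date, gave 33.7 and 32.8 FPKM. PRR1 (chromosome 2, 24569488 to 24572391), the rice counterpart of TIMING OF CAB 1, gave 38.4 and 36.9 FPKM. All 4 were lower in PGD1:Roc10 as deposited and under each of the 4 scalings. For comparison, 51.1% of all measured rows were lower as deposited and 78.7% with the same total. As deposited, the difference of PRR95, at -0.30, stood apart in size from those of the other 3, at -0.04 to -0.09.

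Clock genes with the higher value in PGD1:Roc10 included PCL1. This gene (chromosome 1, 42874272 to 42875515) is a counterpart of the Arabidopsis evening complex member PHYTOCLOCK 1. It gave 4.43 FPKM in NT and 5.21 FPKM in PGD1:Roc10, a difference of 0.19. It was higher under every scaling, but by only 0.02 with both libraries scaled to the same total. At 4.82 FPKM in the mean it lay above only 28.3% of all measured rows, whereas PRR95 lay above 98.1%. A second gene described as similar to TIMING OF CAB 1, OS02G0148500 (chromosome 2, 2664441 to 2668161), gave 47.0 and 50.9 FPKM, a difference of 0.11 that became -0.09 with both libraries scaled to the same total. It and PRR1 therefore differed in sign as deposited, at 0.11 and -0.06.

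The table describes 4 rows as similar to the circadian clock coupling factor ZGT, a name first given to a tobacco gene. OS07G0598200 gave 71.8 FPKM in NT and 72.0 FPKM in PGD1:Roc10. OS03G0427000 gave 17.2 and 15.7 FPKM, and OS05G0494600 gave 1.72 and 1.57 FPKM. The difference of OS07G0598200 was 0.01 as deposited and -0.20 with both libraries scaled to the same total.

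All 5 measured light receptor genes that the rule matched were lower in PGD1:Roc10, as deposited and under each of the 4 scalings. Their differences ran from -0.41 to -0.12 with a median of -0.29. The scalings multiply PGD1:Roc10 values by 0.863 to 1.02, too little to turn differences of this size. Lower values by any amount were found in 51.1% of all measured rows as deposited and in 78.7% with the same total. None was 2-fold lower, and all 5 lay within 1.5-fold.

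Both rows described as similar to cryptochromes, which are blue light receptors, were among them. The cryptochrome 2-like OS02G0625000 (chromosome 2, 24915861 to 24922083) gave 62.3 FPKM in NT and 46.5 FPKM in PGD1:Roc10, a ratio of 0.746. The cryptochrome 1-like OS02G0573200 (chromosome 2, 21976543 to 21980274) gave 84.4 and 69.1 FPKM, a ratio of 0.818. The cryptochrome 1-like gene was the more abundant of the pair in both libraries.

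The phytochromes, receptors of red and far-red light, gave smaller differences except for phytochrome C. The phytochrome B-like OS03G0309200 (chromosome 3, 11020151 to 11028185) gave 54.9 FPKM in NT and 50.3 FPKM in PGD1:Roc10. The phytochrome C-like OS03G0752100 (chromosome 3, 31007494 to 31009781) gave 44.6 and 36.1 FPKM, a difference of -0.30. PHYA (chromosome 3, 29167194 to 29176006) gave 24.1 and 21.3 FPKM. Their order, with B above C and C above A, was the same in both libraries. A second row at exactly the PHYA locus, OS03G0719700, is described as similar to phytochrome A and stood at 0.0800 and 0.108 FPKM, so PHYA held 99.7% and 99.5% of the FPKM of the pair.

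Phytochrome-related rows, matched through the word in their description, varied most. Their differences ran from -1.33 to 0.54. The row past 2-fold, OS03G0417700 (chromosome 3, 17340416 to 17342284), gave 2.81 FPKM in NT and 0.518 FPKM in PGD1:Roc10 and was 5.42-fold lower as a plain ratio. It is the member that passed the level filter through NT alone. Its description reads Phytochrome P450. P450 enzymes are cytochromes that oxidise small molecules and are not light receptors, so the match rests on that wording alone. The other 2 rows so described, OS05G0181200 and OS03G0603100, were not measured. Without these rows 24 of 33 were lower and 0 were 2-fold lower, with a median of -0.12.

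The next largest difference belonged to OS04G0618600 (chromosome 4, 31416377 to 31420095), described as similar to the bHLH protein HFR1, which in Arabidopsis acts in far-red light signalling. It gave 2.94 FPKM in NT and 1.16 FPKM in PGD1:Roc10, a plain ratio of 0.393 and a difference of -0.87. It is thus 2-fold lower as a plain ratio and not on the log2(FPKM + 1) scale. By plain ratio 2 members were 2-fold lower and 0 were 2-fold higher, against 2.34% and 3.55% of all measured rows. Both rows lay in the lowest 11.5% of measured levels.

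The other 4 measured rows of this class had differences between -0.26 and 0.54. The PIF3-like bHLH genes, of a class that phytochromes mark for breakdown in light, were OS07G0182200 at 24.7 FPKM in NT and 25.8 FPKM in PGD1:Roc10 and OS12G0610200 at 17.6 and 14.5 FPKM. OS07G0182200 had the lower value in PGD1:Roc10 with both libraries scaled to the same total. The PIF4-like OS04G0350700 and OS09G0510500 were not measured. OS09G0306700, a counterpart of the Mediator subunit PHYTOCHROME AND FLOWERING TIME 1, gave 24.7 FPKM in both libraries. A receptor kinase row described as involved in wound and phytochrome signalling, OS03G0773300, gave 2.62 FPKM in NT and 4.26 FPKM in PGD1:Roc10 and was the highest difference of all members, at 0.54.

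CCT and CONSTANS-like genes, as matched by symbol or description, gave differences between -0.49 and 0.52, with a median of -0.18. Of the 13 measured, 9 were lower in PGD1:Roc10 and 4 higher as deposited, a share of 69.2% against 51.1% of all measured rows. With both libraries scaled to the same total 10 were lower, a share of 76.9% against 78.7% of all measured rows. None was 2-fold different.

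Among them, 9 were described as CONSTANS-like or CO-like, and 7 of these were lower in PGD1:Roc10 under every scaling. This share, 77.8%, compares with 51.1% of all measured rows as deposited and 78.7% with the same total. OS06G0654900 (chromosome 6, 26843117 to 26843680), similar to CO6, was the most abundant of all members and gave 701 FPKM in NT and 617 FPKM in PGD1:Roc10. A second CO6-like gene, OS02G0178100 (chromosome 2, 4315390 to 4316956), gave 285 and 216 FPKM, a difference of -0.40. OS02G0610500 (chromosome 2, 23989802 to 23991271), a B-box and CCT gene described as a constitutive repressor of flowering, gave 182 and 139 FPKM, a difference of -0.38. The differences of OS02G0178100 and OS02G0610500 lay further from the median of all rows, -0.01, than did that of OS06G0654900, at -0.18. OS03G0711100 gave 109 and 96.2 FPKM, and the CO9-like OS03G0351100 gave 87.4 and 85.1 FPKM.

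Members with the same description did not share a value. The CO9-like OS10G0560400 (chromosome 10, 22069783 to 22072449) gave 51.7 FPKM in NT and 37.1 FPKM in PGD1:Roc10, a difference of -0.47, against -0.04 for the CO9-like OS03G0351100. One more CO9-like row, OS03G0139500, was not measured, with 0.0267 FPKM in PGD1:Roc10 and a listed 0 in NT. OS12G0209200, described as similar to CONSTANS-LIKE a, gave 4.57 and 2.97 FPKM, which was the lowest difference of the class at -0.49.

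In the other direction, the CONSTANS-like OS05G0595300 (chromosome 5, 29656680 to 29660315) gave 49.6 FPKM in NT and 65.7 FPKM in PGD1:Roc10, a ratio of 1.33. It was the only 1 of the 13 members with at least 50 FPKM that was higher under every scaling. OS01G0835700 (chromosome 1, 35827221 to 35828772), described only by its CCT domain, gave 6.26 and 9.43 FPKM, a ratio of 1.51. The CONSTANS-like OS02G0731700 gave 1.34 and 1.71 FPKM. The remaining CCT-domain genes were OS02G0148000 at 53.0 and 46.4 FPKM, OS06G0699600 at 14.8 and 13.3 FPKM, and OS08G0119700 at 1.80 and 1.85 FPKM.

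**Figure D3:**
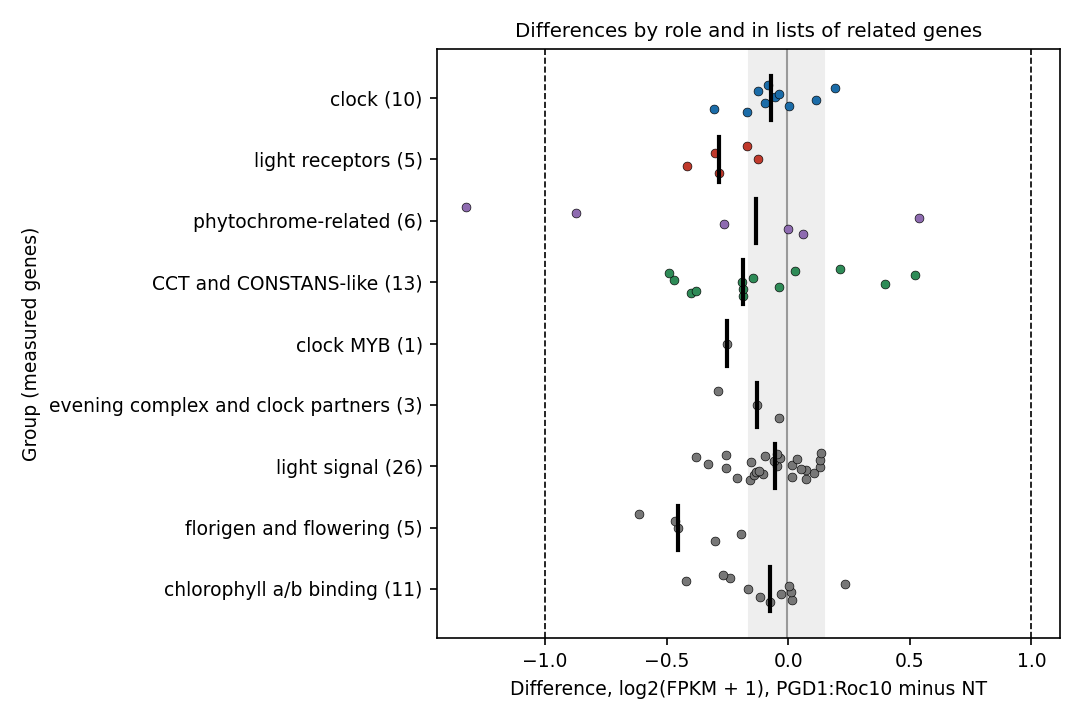
Difference on the log2(FPKM + 1) scale for each measured gene, by role (coloured) and in 5 lists of related genes (grey), with the number of genes in brackets and a bar at each median. The shaded band holds the middle of all measured rows, from -0.16 to 0.15, and dashed lines mark 2-fold. Light receptors all lie left of 0, at -0.41 to -0.12 as deposited.

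Members lay on 11 chromosomes, with 12 on chromosome 3 and 8 on chromosome 2. The CCT-domain gene OS02G0148000 and the TIMING OF CAB 1-like OS02G0148500 are neighbours on chromosome 2, with 22376 bases between their loci. Their differences had opposite signs as deposited, at -0.19 and 0.11, and the same sign with both libraries scaled to the same total.

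Of the 34 measured members, 7 shared their locus with another measured row (20.6%, against 22.9% of all measured rows), so their reads may have been divided between rows. At the PRR73 locus a row described as a hypothetical protein, OS03G0284150, stood at 309 FPKM in NT and 299 FPKM in PGD1:Roc10, above PRR73 itself at 60.4 and 56.5 FPKM. The same locus also holds the non-coding OS03G0284200, which gave 5.04 and 2.96 FPKM. At the PRR37 locus the non-coding OS07G0695200 gave 87.1 and 84.2 FPKM, so PRR37 held 27.9% and 28.0% of the FPKM of the pair. At these 2 clock loci the more abundant row was not the clock gene.

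The same held at 3 other loci. OS02G0731700 held 3.90% of the FPKM of its pair in NT and 4.00% in PGD1:Roc10, beside OS02G0731800 at 33.0 and 41.0 FPKM. OS03G0711100 held 39.4% and 40.0%, beside OS03G0711150 at 168 and 144 FPKM. The receptor kinase row OS03G0773300 held 26.0% and 23.9%, beside OS03G0773450 at 7.45 and 13.6 FPKM. At each of these loci the 2 rows had differences of the same sign as deposited. At the 2 remaining loci OS12G0610200 and OS02G0148000 were the more abundant rows. The strand setting of the counting is not given in the sources used here. Whether reads of overlapping rows on opposite strands were told apart is therefore unknown.

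**Figure D4:**
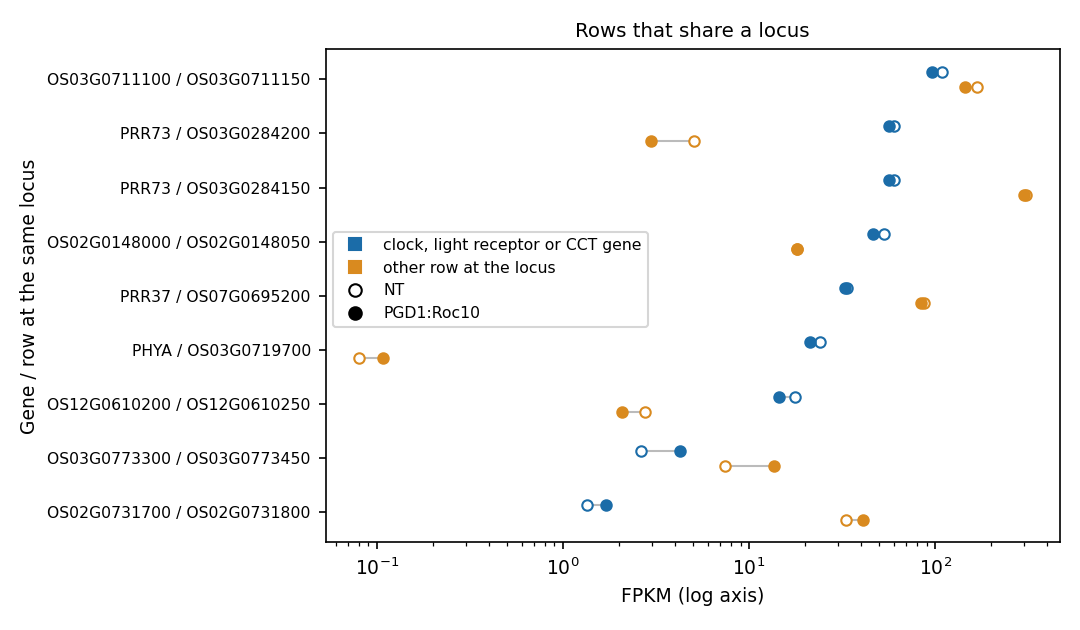
FPKM (log axis) of members (blue) and of the other rows at the same locus (orange), with NT as open and PGD1:Roc10 as filled points. PRR73 appears beside each of 2 other rows, and the highest orange rows at PRR73 and PRR37 reach 309 and 87.1 FPKM in NT.

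Related genes outside the rule were taken from 5 lists set by symbol or description. The LHY-like OS08G0157600, a MYB-type dawn gene of the clock, gave 270.2 FPKM in NT and 226 FPKM in PGD1:Roc10, a difference of -0.25 beside -0.30 for PRR95. The second LHY-like row, OS04G0583900, was not measured. The ELF3-like OS06G0142600 and OS01G0566050, of a gene that in Arabidopsis belongs to the evening complex, gave 63.3 and 57.7 FPKM and 10.5 and 8.39 FPKM. The FKF1-like OS06G0694000, an F-box type blue light receptor that partners GIGANTEA, gave 78.7 and 76.7 FPKM. None of these 4 was 2-fold different, against 2.29% of all measured rows 2-fold higher and 1.29% 2-fold lower. All 4 were lower in PGD1:Roc10 as deposited and under every scaling. The share of all measured rows that were lower was 51.1% as deposited and 78.7% with the same total.

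Of 5 measured genes in the flowering list, 5 were lower in PGD1:Roc10 under every scaling and 0 were 2-fold lower, with a median of -0.45. Of all measured rows 51.1% were lower as deposited, 78.7% were lower with the same total and 1.29% were 2-fold lower. The list is short and its levels were low, between 2.07 and 8.95 FPKM in the mean. OS06G0275000, a zinc finger gene described with heading date and located at chromosome 6, 9336358 to 9338634, gave 2.72 FPKM in NT and 1.43 FPKM in PGD1:Roc10, a ratio of 0.525. The GHD7-like OS07G0261200, of a CCT-domain repressor of flowering in rice, gave 4.11 and 2.70 FPKM. The descriptions of OS06G0275000 and OS07G0261200 name no CCT domain and no CONSTANS. The ranges and counts of the CCT and CONSTANS-like class therefore leave them out. Their differences were -0.62 and -0.47. The Heading date 5-like OS08G0174500 gave 6.95 and 4.81 FPKM. The casein kinase II gene OS03G0762000 gave 9.98 and 7.91 FPKM, and the FLOWERING LOCUS T-like OS04G0488400 gave 7.56 and 6.48 FPKM.

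In the light signal list 16 of 26 measured genes were lower and 10 higher as deposited, 25 were lower with both libraries scaled to the same total, and 0 were 2-fold different. Lower values thus made up 61.5% as deposited, against 51.1% of all measured rows, and 78.7% of all measured rows were lower with the same total. The median was -0.05. The list includes a PIF-like orf1 row that is not a light signalling gene by its description, and without it 16 of 25 were lower. The COP1-like OS02G0771100, of a ubiquitin ligase that marks light regulators for breakdown in darkness, gave 47.4 FPKM in NT and 42.4 FPKM in PGD1:Roc10. The HY5-like OS02G0203000, of a bZIP factor that promotes light growth, gave 25.3 and 23.3 FPKM. The largest differences were in the FAR1-domain genes OS06G0597800, at 6.44 and 4.72 FPKM, and OS02G0608300, at 11.4 and 8.83 FPKM, followed by OS04G0443000 at 2.23 and 1.70 FPKM. The 5 measured rows described as COP9 signalosome subunits had differences between 0.01 and 0.13 as deposited, which all turned negative with the same total, a scaling that multiplies every PGD1:Roc10 value by 0.863.

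The 11 measured chlorophyll a/b binding genes, whose products gather light and whose transcripts cycle under clock control, had 7 lower and 4 higher as deposited, with a median of -0.07 and 0 of them 2-fold different. As deposited 63.6% were thus lower, against 51.1% of all measured rows. With both libraries scaled to the same total 10 were lower, a scaling that left 78.7% of all measured rows lower. OS02G0764500 gave 129 FPKM in NT and 95.8 FPKM in PGD1:Roc10. OS09G0439500 gave 33.0 and 27.2 FPKM, and OS09G0296800 gave 85.0 and 71.8 FPKM. CAB2R differed by -0.07.

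In the authors' deposited table Cuffdiff tested 34 of the 42 members and called 0 of them significant, against 0.579% of all rows it tested. In the authors' deposited table, p was below 0.05 for 2 members: OS04G0618600 with an unadjusted p of 0.02475 and OS03G0417700 with 0.04495, against 3.54% of all rows it tested. The lowest q-value of any member in the authors' deposited table was 0.999. These values come from 1 library per group and carry no estimate of the spread between plants.

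Levels of clock genes depend on the hour at which leaves are taken. The labels give no hour for either library, so its part in the values of the dawn gene OS08G0157600 (-0.25), PRR95 (-0.30), GIGANTEA (-0.17), PRR1 (-0.06) and PCL1 (0.19) was not tested.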

How the data were processed

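Reads were quality-trimmed, aligned with TopHat 2.0.12 to IRGSP-1.0 (Ensembl Plants release 23) and quantified with Cufflinks and Cuffdiff 2.2.1, per the file headers. The deposited values are FPKM, and neither the normalization option nor the strand setting is given in the sources used here. Read and mapped pair totals come from the deposited summary sheet. Each p-value and q-value was copied from the deposited Cuffdiff output, which rests on 1 library per group.

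The members and lists were chosen with earlier results of these data known. Differences are log2(FPKM + 1), which makes differences of weakly expressed genes look smaller, and counts past 2-fold or 1.5-fold are on this scale unless said to be by plain ratio. Ratios printed beside a pair of FPKM values are plain. The rule also barred descriptions with MYB or SANT, which removed 0 rows. Named by rule are PRR95, PCL1, members past 2-fold, and the 6 most abundant and the 6 most different measured members of each role. From each related list up to 3 genes were named by rule. The remaining members were added to account for every member. Other genes of the related lists were named outside the rule. Overlap means at least 1 shared base. Coordinates were read from the deposited locus entries, on IRGSP-1.0.

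FPKM carries no count per gene, so no interval is given. Among 1117 rows with low values in both libraries, the commonest ratio of PGD1:Roc10 to NT was 1.23, and 300 rows lay within 0.05 of it. Its cause was not tested. Python 3.11.15, pandas 2.3.3, NumPy 2.4.6 and matplotlib 3.10.9 were used, and the calculations were tested on simulated data.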

Additional observations from a re-analysis of the deposited data

How the results depend on the processing

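Alternatives were 3 pseudocounts, 4 scalings, 3 filters on low values, 2 thresholds and 4 choices of members, of which leaving out the Phytochrome P450 rows was chosen after seeing the data. Under all of them 0 members were 2-fold higher, and the percent of members higher ran from 14.7% to 30.8%, against 26.5% as reported. The count of members 2-fold lower, 1 as reported, was 2 with a pseudocount of 0.1 or 0.5, with plain ratios and past 1.5-fold. It was 0 with a pseudocount of 5, above 5 FPKM, and without OS03G0417700 or the Phytochrome P450 rows, since OS03G0417700 is then left out or shrunk. With both libraries scaled to the same FPKM total, which put the median over all rows at -0.19, the median difference was -0.34 for all members, -0.25 for the clock, -0.49 for light receptors, -0.33 for phytochrome-related genes and -0.39 for CCT and CONSTANS-like genes. On that scaling it was -0.47 for the clock MYB gene, -0.34 for evening complex genes and partners, -0.25 for light signal, -0.62 for flowering and -0.29 for chlorophyll a/b binding genes. The phytochrome-related median, -0.13 over 6 genes, was -0.024 with no filter, -0.0024 above 5 FPKM or without OS03G0417700 or the Phytochrome P450 rows, and -0.44 without members that share a locus. The clock MYB value was -0.094 with no filter, and the flowering median was -0.24 with a pseudocount of 5 and -0.30 above 5 FPKM. Of 381 values of the 28 genes named by rule under the alternatives, 375 kept the sign reported, and 38 moved by more than 0.1. A pseudocount, filter or choice of members cannot change the sign of a gene's difference. Only the 4 scalings could, so most of the 375 were fixed in advance. Keeping MYB and SANT descriptions changed no value. No paired analysis was possible because the groups share 1 replicate number only. FPKM gives no depth per gene, so how precise the values near 1 FPKM are is unknown.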

Other observations

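Below the level filter, the FAR1-domain row OS01G0852650 of the light signal list stood at 0.138 FPKM in NT and 1.01 FPKM in PGD1:Roc10, a plain ratio of 7.36. The row OS03G0603200, a hypothetical protein that overlaps the unmeasured Phytochrome P450 row OS03G0603100, stood at 2.11 FPKM in NT and was listed at 0 in PGD1:Roc10.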
